A study of Mus musculus with 4 samples.

Results

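Cd207 macrophages of the neonatal mouse heart were 67 cells selected on at least 2 UMIs (unique molecular identifiers, counted RNA molecules) of Cd207, the gene of langerin. They came from 23961 immune cells that passed a quality filter of at least 500 UMIs, at least 200 genes and at most 10% mitochondrial UMIs. A cell also needed C1qa, C1qb and C1qc together at 30 or more per 10000 UMIs. The class II genes Cd74, H2-Aa, H2-Ab1 and H2-Eb1 together had to stay under 50 per 10000 UMIs, and the cycle genes Mki67, Top2a, Birc5 and Cenpf under 5 UMIs. At most 2 UMIs were allowed for Gpnmb, and at most 2 for Cd3d, Cd3e, Cd3g, Cd79a and Cd79b together. Without the Cd207 limit, 6485 cells met the rule, and the 67 made up 1.03% of them. Of the rest, 6408 had 0 Cd207 UMIs and are called Cd207-negative macrophages, and 10 had 1 UMI and entered neither class.

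CD45+ cells were sorted from C57BL/6 hearts without atria, and single-cell libraries were made with a 3' kit. The 4 groups were PD1 KO mice after myocardial infarction (KO_MI), PD1 Het mice after infarction (Het_MI), PD1 KO mice after sham surgery (KO_sham) and PD1 Het mice after sham surgery (Het_sham). PD1, encoded by Pdcd1, is an inhibitory receptor of activated lymphocytes. KO mice lacked both copies of it and Het mice carried a single deleted copy, so no group was wild type. Pups had surgery on postnatal day 2, and tissue was collected after a further 7 days. Each group was 1 library, and the labels do not state how many animals it pooled.

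Langerin is a C-type lectin that binds sugars on microbes and forms the Birbeck granules of Langerhans cells, the macrophage-related cells of the epidermis. Tissue macrophages make C1q, the first component of the classical complement pathway, and clear dying cells. In the mouse, the lectin Clec4f and the complement receptor Vsig4 are known from liver macrophages. Id1 and Id3 inhibit basic helix-loop-helix transcription factors and are known targets of BMP and TGF-beta signalling, which Smad6 and Smad7 restrain.

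Promoters are shown for 4 genes on which the results turn, from 250 bases before to 50 after the start of transcription (RefSeq, GRCm38.p6; 4 of 4 genes matched). Capitals mark matches on either strand to GAGGAA, a core bound by PU.1, a factor that macrophages require, and to TGANTCA, bound by AP-1. Of 32851 mouse promoters of that length, 28.3% hold the PU.1 motif and 7.81% the AP-1 motif. A GC-rich motif bound by SMADs, GGCGCC, which 11.9% of promoters hold, was searched as well.
Cd207 (chr6:83677808-83678107, minus strand): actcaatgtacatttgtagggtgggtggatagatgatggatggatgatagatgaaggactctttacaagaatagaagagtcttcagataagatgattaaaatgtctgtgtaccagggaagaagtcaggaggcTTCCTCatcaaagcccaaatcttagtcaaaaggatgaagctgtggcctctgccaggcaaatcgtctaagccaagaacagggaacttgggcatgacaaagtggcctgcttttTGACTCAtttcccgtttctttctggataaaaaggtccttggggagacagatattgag
Clec4f (chr6:83656067-83656366, minus strand): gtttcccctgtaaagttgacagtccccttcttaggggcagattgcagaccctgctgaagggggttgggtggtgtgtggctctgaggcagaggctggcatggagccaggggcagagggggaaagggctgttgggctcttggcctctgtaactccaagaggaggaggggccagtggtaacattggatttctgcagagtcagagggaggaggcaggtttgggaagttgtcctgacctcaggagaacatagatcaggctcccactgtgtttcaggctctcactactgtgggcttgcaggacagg
Vsig4 (chrX:96293389-96293688, minus strand): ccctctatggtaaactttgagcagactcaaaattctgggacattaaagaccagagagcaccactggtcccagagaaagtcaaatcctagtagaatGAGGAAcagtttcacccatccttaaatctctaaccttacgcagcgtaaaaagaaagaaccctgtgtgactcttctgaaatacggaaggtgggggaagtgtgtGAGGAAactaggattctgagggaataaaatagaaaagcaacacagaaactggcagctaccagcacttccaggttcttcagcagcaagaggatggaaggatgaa
Id3 (chr4:136143572-136143871, plus strand): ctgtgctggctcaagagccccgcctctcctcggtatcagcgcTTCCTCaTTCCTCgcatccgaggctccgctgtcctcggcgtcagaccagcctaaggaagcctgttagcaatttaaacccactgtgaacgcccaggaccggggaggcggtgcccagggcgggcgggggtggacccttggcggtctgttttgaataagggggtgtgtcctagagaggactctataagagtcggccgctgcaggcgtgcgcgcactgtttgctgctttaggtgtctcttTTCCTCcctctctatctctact
The Cd207 window held 1 match to each of the PU.1 and AP-1 motifs, and the PU.1 motif matched 2 times in the Vsig4 window and 3 times in the Id3 window. The SMAD motif was in none of the 4 windows, and the Clec4f window held no match to any of the motifs. Cd207 (chr6:83671207-83677857) and Clec4f (chr6:83644542-83656116) are neighbours, 15090 bases apart, and RefSeq places 0 genes between them.

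The libraries held 52701847 to 72002420 UMIs over 6157 to 8379 barcodes. Of 30068 barcodes, 74 occurred in more than 1 library, and 0 of these were Cd207 macrophages. Over all cells Pdcd1 stood at 6.25 CPM (UMIs per 1000000 UMIs) in KO_MI, 2.17 in Het_MI, 1.16 in KO_sham and 1.28 in Het_sham, so its RNA was not absent from the libraries labelled KO. The labels do not give the deleted stretch, and 3' tags outside it would check nothing. Cd207 macrophages held 0 Pdcd1 UMIs. Their summed UMIs were 105302 in KO_MI, 215043 in Het_MI, 152357 in KO_sham and 153796 in Het_sham, and the median cell had 8457 UMIs, against 8666 in Cd207-negative macrophages. Levels below are CPM of these sums, with the libraries in that order.

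The 67 cells fell as 15 in KO_MI, 19 in Het_MI, 18 in KO_sham and 15 in Het_sham. Most had far more Cd207 than the limit asked for: counts ran from 2 to 73 UMIs with a median of 15, 42 cells had 10 or more, and 5 had exactly 2. The library medians were 10, 21, 18 and 8 UMIs. Summed, Cd207 stood at 1700 CPM in KO_MI, 1790 in Het_MI, 1989 in KO_sham and 1684 in Het_sham. These values chose the cells and are given as a description. Among cells outside the macrophages, at least 1 Cd207 UMI was found in 1 of 3520 B cells, 0 of 1304 T cells and 0 of 1125 neutrophils, whose median depths were 4149, 6784 and 2529 UMIs. A count of 0 allows a share of up to 0.230% of the T cells and 0.267% of the neutrophils. Intervals and such limits cover counting error only.

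**Figure D1:**
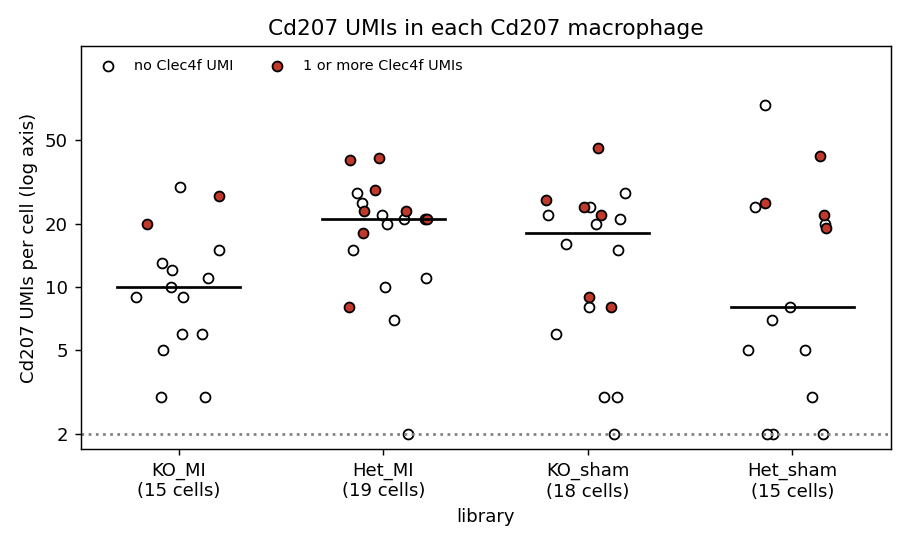
Cd207 UMIs (log axis) of each Cd207 macrophage by library; a point is a cell, filled where Clec4f was also detected, and the line of each library is its median (10, 21, 18 and 8 UMIs). Clec4f was detected in 20 of the 67 cells, 15 of them with 20 or more Cd207 UMIs.

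Of 123 cells of the series with 2 or more Cd207 UMIs, 121 met the C1q limit. At the edges of the rule, the class II level was 40.0 per 10000 in the nearest cell inside and 55.3 in the nearest outside, and 19 cells were left out by that limit alone. The cycle genes stood at 4 UMIs inside and 8 outside (11 cells by that limit alone), and the T and B cell genes at 2 inside and 3 outside (6 cells).

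The cells carried macrophage markers. Csf1r, the receptor for the growth factor that macrophages depend on, was detected in 67 of 67 Cd207 macrophages and 96.2% of the Cd207-negative ones. Adgre1, which encodes F4/80, was found in 65 of 67, and Cx3cr1, the fractalkine receptor, in 63. Of the other 7 markers of a Langerhans cell list, 4 were absent: Epcam, Cdh1, Cldn1 and Itgae had 0 UMIs, which allows up to 4.79 CPM each, and Itgax and Cd24a were found in 4 and 2 cells. Runx3, a transcription factor, was found in 19 of 67 Cd207 macrophages (28.4%), against 21.4% of the Cd207-negative ones. Of dendritic cell markers, Flt3 and Xcr1 were found in 1 cell each, and Clec9a, Cd209a, Zbtb46, Ccl22 and Cacnb3 in 0. Pooled over the libraries, Batf3 stood at 43.1 against 20.2 CPM in the Cd207-negative class, Il4i1 at 11.2 against 2.04 CPM, Ccr7 at 6.38 against 3.06 CPM and Sirpa at 645 against 514 CPM, while Naaa, Clec10a and Fscn1 had lower levels in the Cd207 class. The type 1 dendritic cell list of 5 genes summed to 76, 69.8, 52.5 and 45.5 CPM, against 62.5, 60.5, 55.4 and 53.5 CPM. The type 2 list of 5 summed to 636, 735, 591 and 637 CPM, against 518, 614, 558 and 517 CPM. The migratory list of 5 summed to 28.5, 4.65, 26.3 and 32.5 CPM, against 12.8, 9.66, 10.2 and 8.83 CPM, and the part of these markers in the results was not tested. Cd5l and Marco, also known from liver macrophages, were found in 1 cell (1.49%) and 2 cells (2.99%), against 1.17% and 3.57% of Cd207-negative macrophages. Other genes of liver macrophages were not surveyed as a list.

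Egr1, an immediate early transcription factor used beside Cd207 to mark these cells, stood at 959 CPM in KO_MI, 1549 in Het_MI, 899 in KO_sham and 1151 in Het_sham, against 832, 966, 684 and 423 CPM in Cd207-negative macrophages. It was higher in each library, by 0.67 ± 0.54 on the log2 scale (mean and SD over 4 libraries, 10 CPM added to each level). Egr1 was detected in 53 of 67 Cd207 macrophages (79.1%) and in 78.2% of Cd207-negative ones. As a marker of the class it is described without a test.

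Cd207 macrophages were about 1 in 100 macrophages in each library. With exact Clopper-Pearson 95% intervals, they were 0.753% (0.422 to 1.24%) of the cells that met the rule without Cd207 in KO_MI, 1.23% (0.744 to 1.92%) in Het_MI, 0.978% (0.581 to 1.54%) in KO_sham and 1.35% (0.757 to 2.22%) in Het_sham. The ratio of shares was 0.610 (0.311 to 1.20) for KO_MI over Het_MI, 0.915 (0.467 to 1.79) for Het_MI over Het_sham, 0.769 (0.389 to 1.52) for KO_MI over KO_sham and 0.725 (0.367 to 1.43) for KO_sham over Het_sham. With 1 library per group there was no test, and each of these intervals included 1. The ratio of KO_MI over Het_MI depended on the limits of the rule. Over all C1q cells with 2 or more Cd207 UMIs it was 1.21 (0.742 to 1.97), an alternative chosen after seeing the data, and with at most 5% mitochondrial UMIs it was 0.430 (0.196 to 0.944).

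Cells left out for class II genes, which present antigen to helper T cells, were unevenly spread. Among C1q cells with 2 or more Cd207 UMIs, 20 of 44 (45.5%) were at or above the class II limit in KO_MI, 4 of 25 (16.0%) in Het_MI, 4 of 26 (15.4%) in KO_sham and 1 of 26 (3.85%) in Het_sham. Among C1q cells with 0 Cd207 UMIs the shares were 13.6%, 6.59%, 4.46% and 2.16% in the same order. KO_MI was highest and Het_sham lowest in both kinds of cell, and the difference between libraries was not tested.

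**Figure D2:**
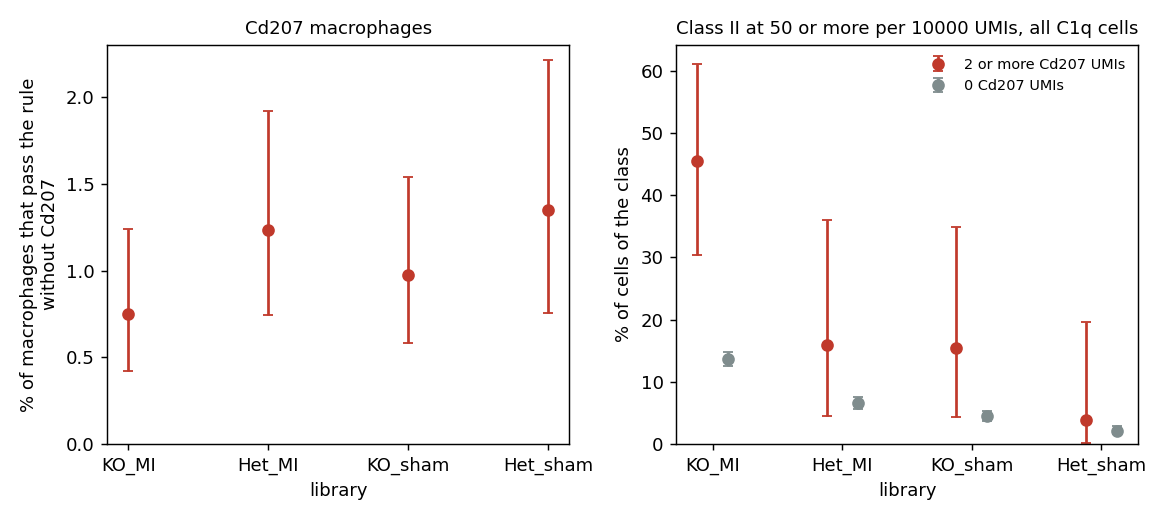
Left, Cd207 macrophages as a percent of macrophages that met the rule without Cd207; right, percent of C1q cells at or above the class II limit, for cells with 2 or more and with 0 Cd207 UMIs; error bars are exact 95% intervals and each value is 1 library. The shares on the left lie between 0.753% and 1.35% with overlapping intervals, and on the right KO_MI is highest at 45.5% and 13.6%.

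Beside Cd207, these cells differed from the other macrophages of the same libraries by more Id3, Id1 and Smad6, and by less RNA of resident macrophage genes and of a monocyte-derived list. UMIs were summed per library and class, and both classes were compared over the 4 libraries with edgeR's quasi-likelihood test, with the library as a block. Genes of the rule and Egr1 were kept out of the counts. Of 11745 genes, 136 were higher in Cd207 macrophages (1.16%) and 228 lower (1.94%) at an adjusted p under 0.05. The edgeR fit gave all genes 1 shared spread, so a gene with uneven libraries can pass. Its robust option called 139 higher (1.18%) and 223 lower (1.9%), and DESeq2 called 131 higher (1.57%) and 85 lower (1.02%) of 8329. limma-voom with a spread for each gene, added after seeing the data, called 14 higher (0.119%) and 21 lower (0.179%), of which 12 and 21 were also called by edgeR. The median log2 ratio of all genes was −0.16, and −0.06 with median-of-ratios factors, which gave 180 higher and 157 lower. Without Het_MI, the library with the most UMIs in the class, 77 were higher and 116 lower. The edgeR p-values rest on the shared spread and not on the spread of each gene between these 4 libraries. Nothing in the labels says that the libraries came from separate litters or pools, and no p-value here measures spread beyond these 4.

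**Figure D3:**
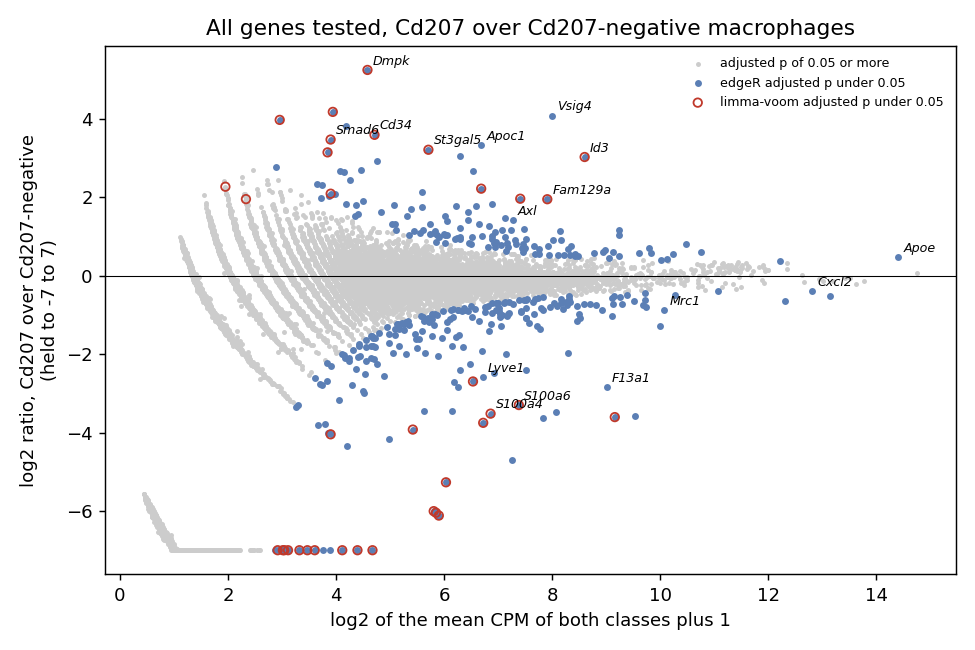
Log2 ratio of Cd207 over Cd207-negative macrophages (edgeR, held to −7 to 7) against the log2 of the mean CPM plus 1 for the genes tested; filled blue points had an adjusted p under 0.05 by edgeR, red rings by limma-voom, and grey points neither. Id3, St3gal5, Cd34, Smad6 and Dmpk were called by both, and Vsig4, at 4.07, by edgeR alone.

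Id3 was the most widely detected of the 12 highest genes. It stood at 798 CPM in KO_MI, 637 in Het_MI, 578 in KO_sham and 774 in Het_sham, against 85.5, 117, 96.9 and 47.4 CPM in Cd207-negative macrophages. The classes did not overlap, and the library ratios averaged 2.91 ± 0.66 on the log2 scale (SD, n = 4; edgeR 3.02, adjusted p = 9.47e-86, limma-voom adjusted p = 0.0248). Id3 was detected in 57 of 67 Cd207 macrophages, against 30.1% of the others.

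Id1, a relative of Id3, stood at 180.4, 88.4, 65.6 and 254 CPM, against 17.2, 15, 20.1 and 13.7 CPM. It did not overlap either, with a log2 ratio of 3.05 (edgeR adjusted p = 6.36e-28), but was not called by limma-voom (adjusted p = 0.0667). Smad6, which restrains BMP signalling, stood at 28.5, 32.6, 19.7 and 19.5 CPM, against 2.02, 2.62, 2.73 and 1.47 CPM. Its level rests on 16 UMIs in 14 cells, and both fits called it (log2 ratio 3.47, edgeR adjusted p = 2.16e-06, limma-voom 0.0248).

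Of 15 TGF-beta pathway genes tested, 5 were higher and none lower, against 1.16% higher and 1.94% lower over all genes. The median log2 ratio was 0.28, against −0.16 for all genes. By library, with 10 CPM added to each level, it was 0.46 in KO_MI, 0.03 in Het_MI, 0.40 in KO_sham and 0.24 in Het_sham. The 5 were Smad6, Id3, Id2 (1.16), Smad7 (0.94) and Skil (0.56), a repressor of SMAD proteins, and limma-voom called Smad6 and Id3 alone. Tgfb1, a ligand, was at 0.05 and Smad3, which carries the signal, at −0.78, and neither was called.

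Vsig4 was the least even of the 12 highest genes. It stood at 361 CPM in KO_MI, 916 in Het_MI, 85.3 in KO_sham and 345 in Het_sham, against 59.7, 21.1, 13.7 and 12.5 CPM in Cd207-negative macrophages. It was higher in each library, by 3.32 ± 1.35 on average (SD, n = 4). The edgeR call (adjusted p = 4.78e-99) was lost with the robust option (adjusted p = 0.258) and by limma-voom (0.0661). Vsig4 was detected in 25 of 67 cells, against 3.51% of Cd207-negative macrophages.

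Clec4f, the neighbour of Cd207 whose promoter is shown above, was too sparse to test and was chosen after its values were seen. It had 5, 20, 22 and 26 UMIs (47.5, 93, 144 and 169 CPM) in Cd207 macrophages, against 1, 7, 4 and 1 UMIs (0.0613, 0.448, 0.214 and 0.0981 CPM) in the far larger Cd207-negative sums. It was found in 20 of 67 Cd207 macrophages and 6 of 6408 Cd207-negative ones, and 1 cell gave 27.4% of its UMIs in the class. Within libraries, 1 cell gave 4 of 5 UMIs in KO_MI, 8 of 20 in Het_MI, 11 of 22 in KO_sham and 20 of 26 in Het_sham. Over the whole series, 112 of 132 Clec4f UMIs (84.8%) were in the 123 cells with 2 or more Cd207 UMIs.

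Clec4f was found mostly where Cd207 was high. It was detected in 0 of 10 cells with 2 to 4 Cd207 UMIs, 3 of 15 with 5 to 9, 2 of 12 with 10 to 19 and 15 of 30 with 20 or more. Median depths in these bands were 9135, 6195, 9091 and 9020 UMIs. Id3 was detected in 7 of 10, 11 of 15, 12 of 12 and 27 of 30 cells of the same bands. Clec4f and Vsig4 were found together in 12 cells, Clec4f alone in 8, Vsig4 alone in 13 and neither in 34.

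Surface and lipid genes were also among the 12 highest. St3gal5, the enzyme that makes the ganglioside GM3, stood at 85.5, 97.7, 85.3 and 97.5 CPM, against 12.3, 7.62, 9.91 and 10.6 CPM. Its classes did not overlap (log2 ratio 3.21, edgeR adjusted p = 8.38e-21, limma-voom 0.029). Cd34, a sialomucin known from blood progenitors and vessel lining cells, stood at 38, 41.9, 45.9 and 58.5 CPM, against 5.46, 4.16, 4.18 and 1.86 CPM. It was found in 23 cells with at most 2 UMIs in any (log2 ratio 3.59, edgeR adjusted p = 5.11e-12, limma-voom 0.0406). Summed over 5 markers of vessel lining cells (Pecam1, Cdh5, Kdr, Fabp4 and Flt1), levels were 66.5, 51.2, 72.2 and 26 CPM, against 69.5, 48.6, 57.6 and 35.6 CPM. Pooled over the libraries, Cdh5 stood at 11.2 against 3.50 CPM and Flt1 at 9.58 against 2.58 CPM, while Pecam1, Kdr and Fabp4 had lower levels in the Cd207 class. At least 3 UMIs of the list were found in 3 of 18 Cd207 macrophages of KO_sham, against 3.46% of the Cd207-negative ones. In Het_MI they were found in 1 of 19, against 2.57%, so the share was larger in the Cd207 class of both libraries. In KO_MI and Het_sham they were found in 0 Cd207 macrophages, against at least 2.47% of the Cd207-negative ones. Cd34 was too sparse to test once droplets with 3 or more UMIs of another lineage were removed. The part of vessel lining cell RNA in the Cd34 result was not tested.

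Apoc1, an apolipoprotein, stood at 189.9, 302, 105 and 91 CPM, against 45, 12, 11.4 and 12 CPM, and passed edgeR alone (log2 ratio 3.32, adjusted p = 2.07e-40, limma-voom 0.0719). Nr1h3, the liver X receptor alpha, had a ratio of 2.67 from 17 UMIs, 41.2% of them in 1 cell. Fpr1, a receptor for bacterial formyl peptides, was at 2.70 with 13 of its 23 UMIs in Het_sham. The calls of Nr1h3 and Fpr1 were lost by limma-voom.

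Dmpk, a muscle protein kinase, had the highest ratio, 5.24, from 28 UMIs in 19 cells, and both fits called it. Adgb, the androglobin gene, was at 3.14 from 15 UMIs, also called by both. Myl7, a myosin light chain of atrial muscle, was at 3.80 by edgeR alone, from 20 UMIs in 13 cells of hearts sampled without atria. Nppa, the atrial natriuretic peptide, was too sparse to test, at 38, 18.6, 13.1 and 45.5 CPM against 1.72, 2.05, 0.482 and 0.196 CPM. Summed over 8 cardiomyocyte markers, levels were 189.9, 130.2, 91.9 and 163 CPM, against 137, 129, 171 and 276 CPM in Cd207-negative macrophages. At least 6 of the 8 markers were detected in the Cd207 class of each library, and Myh6 was at 0 in KO_sham. With droplets that held 3 or more UMIs of another lineage removed, Dmpk and Myl7 were too sparse to test and edgeR still called Adgb (3.26). The part of cardiomyocyte RNA in these results was not tested.

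Fam129a, Itgal and Acp5 were also higher and were chosen after their values were seen. Fam129a, a stress-response gene, stood at 456, 363, 387 and 345 CPM, against 99.1, 110.1, 96.5 and 85 CPM, and was detected in 60 of 67 cells against 49.9% of the others (mean library ratio 1.88 ± 0.19, SD, n = 4). Itgal, the alpha chain of the integrin LFA-1, stood at 266, 312, 243 and 234 CPM, against 87, 58.8, 69.6 and 58.5 CPM. It is also 1 of 5 genes of a non-classical monocyte list, which summed to 741, 646, 414 and 416 CPM, against 405, 408, 386 and 271 CPM. These sums include Itgal, which pooled over the libraries stood at 268 against 69.6 CPM. Of the other members, Treml4 (27.1 against 17 CPM) and Ear2 (17.6 against 15.1 CPM) were higher. Nr4a1 (231 against 263 CPM) and Ace (4.79 against 12.3 CPM) were lower. Acp5, tartrate-resistant acid phosphatase, stood at 256, 153, 171 and 117 CPM, against 49.5, 46, 30.8 and 19.7 CPM, and was detected in 33 of 67 cells. None of the 3 overlapped between classes, and both fits called them (limma-voom adjusted p = 0.0248, 0.0436 and 0.0475).

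**Figure D4:**
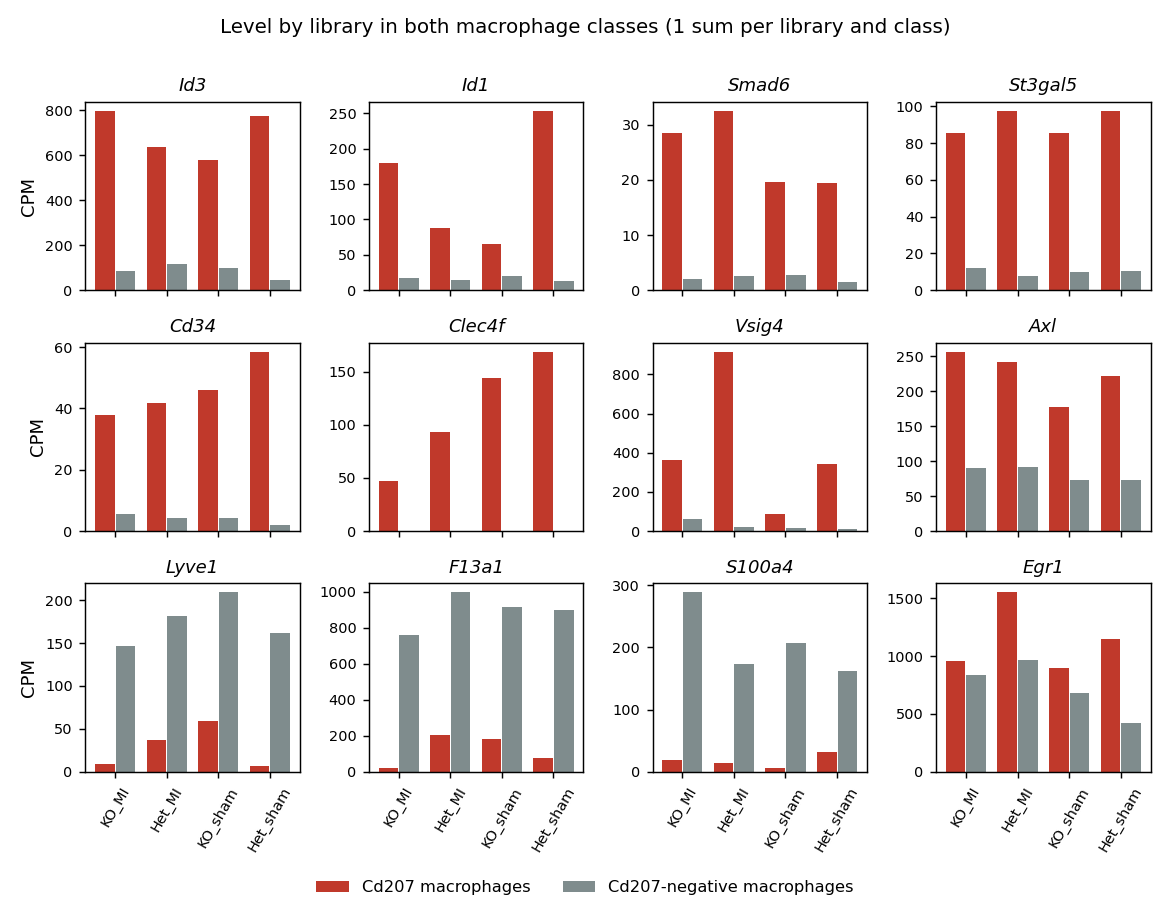
CPM of 12 genes by library in Cd207 macrophages and Cd207-negative macrophages; each bar is the sum of 1 library and class, and each panel has its own axis from 0. Id3, Id1, Smad6, St3gal5, Cd34 and Axl are higher and Lyve1, F13a1 and S100a4 lower in each library, while Vsig4 ranges from 85.3 to 916 CPM in the Cd207 class.

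Genes of resident cardiac macrophages were mostly lower. Of 14 tested, 10 were lower (Lyve1, Folr2, F13a1, Mrc1, Stab1, Maf, Igf1, Cbr2, Gas6 and Ednrb) and Vsig4 was among the higher ones, with a median log2 ratio of −0.88. Over all genes, 1.16% were higher and 1.94% lower. None of the 14 was called by limma-voom. F13a1, the A subunit of clotting factor XIII, stood at 19 CPM in KO_MI, 205 in Het_MI, 184 in KO_sham and 78 in Het_sham, against 760.0, 995, 912 and 897 CPM. Its classes did not overlap (log2 ratio −2.85, edgeR adjusted p = 3.36e-57, limma-voom 0.0759), and it was detected in 15 of 67 cells against 73.6%. In KO_sham, 26 of its 28 UMIs in the Cd207 class came from 1 cell.

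Lyve1, the hyaluronan receptor of vessel-associated macrophages, stood at 9.50, 37.2, 59.1 and 6.50 CPM, against 147, 182, 209 and 161 CPM (log2 ratio −2.59, edgeR adjusted p = 3.28e-18, limma-voom 0.0661). It was found in 6 of 67 cells, 1 of which held 47.4% of the UMIs. That cell gave all 9 Lyve1 UMIs of KO_sham and most of the F13a1 UMIs there. Ednrb, an endothelin receptor, was at −2.84, Cbr2, a carbonyl reductase, at −1.99, and Mrc1, the mannose receptor, at −0.88. Mrc1 was nonetheless detected in 63 of 67 cells. Lyve1 and Ednrb had under 10 UMIs in every Cd207 sum and passed the count filter through the Cd207-negative sums alone. Timd4, a receptor for dying cells, was not called at 0.18, with 9.50, 69.8, 52.5 and 26 CPM against 50.1, 35.4, 34.9 and 36 CPM.

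Genes of monocytes and cells newly derived from them were lower in 7 of 12 tested (Ly6c2, Plac8, S100a4, S100a6, Lyz2, Fn1 and Ifitm3) and higher in none, with a median of −2.08. Over all genes, 1.94% were lower and 1.16% higher. Fitted ratios of genes at 0 UMIs depend on the prior count, and the library medians with 10 CPM added to each level ran from −1.48 to −0.81. limma-voom called 3 of the 7, Ly6c2, S100a4 and S100a6. Each of the 3, and Fn1, had under 10 UMIs in every Cd207 sum and passed the count filter through the Cd207-negative sums alone. Ly6c2 was at 0 UMIs in every Cd207 sum, so its calls were read at the floor and do not measure spread within the class. S100a4, a calcium-binding protein, stood at 19, 14, 6.56 and 32.5 CPM, against 288, 174, 207 and 162 CPM (log2 ratio −3.52, edgeR adjusted p = 1.42e-27, limma-voom 0.029). S100a6 was at −3.30 from 18 UMIs. Ly6c2, the marker of classical monocytes, had 0 UMIs and was at least 3.76-fold lower, with 3 UMIs over the class as the floor. When droplets with 3 or more UMIs of another lineage were removed, edgeR still called S100a4 (−3.06, adjusted p = 7.3e-18) but not Ly6c2 (edgeR adjusted p = 0.398), which was still at 0 UMIs in the class with a fitted ratio of −7.93. That step removed 5, 2, 4 and 3 Cd207 macrophages and 25.5 to 32.8% of the Cd207-negative ones.

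Ccr2, the receptor that draws monocytes to injury, was not called and was uneven, at 0, 4.65, 52.5 and 111 CPM against 52.8, 50.9, 34.8 and 30.8 CPM, with 53.8% of its UMIs in 1 cell. Spp1, osteopontin, of the lipid-associated genes, had 8 UMIs in the 67 cells (19, 23.3, 0 and 6.50 CPM, against 454, 179, 59.2 and 62.2 CPM) and was called by both fits (log2 ratio −3.75, edgeR adjusted p = 8.08e-24, limma-voom 0.029). With under 10 UMIs in every Cd207 sum, Spp1 passed the count filter through the Cd207-negative sums alone. Of the 14 lipid genes tested, Spp1, Lpl (−0.99) and Cd63 (−0.51) were lower and Apoe, the lipid carrier, higher (0.47). Shares over all genes were 1.16% higher and 1.94% lower.

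The 12 lowest genes were Lcn2, Ltf, G0s2, Mcemp1, Cma1, Hdc, Ccl8, Stfa2, Camp, Ngp, Stfa2l1 and Cstdc4. Lcn2, Ltf, Camp and Ngp encode granule proteins of neutrophils, Cma1 and Hdc are known from mast cells, and Ccl8 is a chemokine. The first 7 had 0 UMIs in the 67 cells and were at least 4.21-fold to 10.2-fold lower by the same floor. All 12 passed the count filter through the Cd207-negative sums alone. Lcn2, for one, stood at 59.7, 61.1, 44.8 and 21.7 CPM in Cd207-negative macrophages. For each of the last 5, all UMIs of the class came from 1 cell of KO_MI.

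Neutrophil markers moved with these genes. Summed over S100a8, S100a9, Retnlg, Csf3r and Cxcr2, levels were 1415, 41.9, 26.3 and 26 CPM, against 3134, 2961, 2158 and 1735 CPM in Cd207-negative macrophages. Cxcr2 was at 0 in the Cd207 class of each library. At least 3 UMIs of the list were found in 1 of 67 Cd207 macrophages, against 6.85 to 10.7% of the Cd207-negative ones, and 1 cell of KO_MI held 74 of the 83 S100a9 UMIs. With droplets of another lineage removed, 8 of the 12 lowest genes were too sparse to test and the other 4 (Mcemp1, Cma1, Ccl8 and Cstdc4) were not called, at fitted log2 ratios of −6.43 to −8.67 that depend on the prior count. The lost calls do not show that these differences went away.

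Of 10 MHC class I genes and 10 heat shock genes none was called, with medians of 0.05 and 0.04, against 1.16% higher and 1.94% lower over all genes. Of 21 immediate early genes, Fosb (1.14) and Dusp2 (0.92) were higher and Klf2 (−0.71) lower. Of 12 complement and efferocytosis genes, Axl and Itgb5 (0.89) were higher and Gas6, Cd36 (−1.29) and Stab1 (−0.87) lower. Axl, a receptor that binds dying cells through Gas6, stood at 256, 242, 177 and 221 CPM, against 89.7, 92, 73 and 73.1 CPM (log2 ratio 1.42, edgeR adjusted p = 2.08e-12, limma-voom 0.0719), and Gas6 itself was at −1.37.

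Other C-type lectins were mixed. Of 13 tested, Clec4a2 was higher (0.68) and Clec4d (−1.56), Clec4e (−2.56), Clec10a (−1.59) and Mgl2 (−1.73) lower. For this and the next lists, the shares over all genes were 1.16% higher and 1.94% lower. Clec4e passed the count filter through the Cd207-negative sums alone. Of 7 Langerhans cell genes tested none was called. Among myeloid transcription factors, Id2, Id3, Nr1h3 and Cebpa (0.96) were higher and Maf (−0.44) lower, while Spi1, which encodes PU.1, was not called at 0.15. Of 13 microglia-type genes, Csf1r (0.55) and Tmem119 (1.31) were higher and Fcrls (−0.49) and Gpr34 (−0.96) lower.

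Inflammatory genes were mixed. Of 16 tested, Il1a and Nfkbia (0.59) were higher and Ccl2 (−0.62), Ccl7 (−1.15), Ccl12 (−1.97) and Cxcl2 (−0.39) lower. For this and the other lists of this paragraph, the shares over all genes were 1.16% higher and 1.94% lower. Il1a, an alarm cytokine, stood at 209, 186, 190.3 and 137 CPM, against 53.6, 67, 66 and 19.2 CPM, with no overlap. Cxcl2, a chemokine for neutrophils, was higher in KO_MI and lower in the other libraries, and its ratio was 0.11 against depth-matched cells. Of 14 growth factors and cytokines, Hbegf was higher (1.17) and Igf1 (−0.67) and Osm (−1.86) lower. Of 14 type I interferon genes, Isg15 (0.74) and Rtp4 (1.06) were higher and Ifi27l2a (−0.65) lower, the last at 0.021 against depth-matched cells. Isg15 was lower in KO_sham, at 118 against 182 CPM, and 1 cell held 68.1% of its UMIs in Het_sham. DESeq2 (adjusted p = 0.182) and limma-voom (adjusted p = 0.283) did not call it. Of 11 interferon-gamma genes, Socs1 was higher (1.52).

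**Figure D5:**
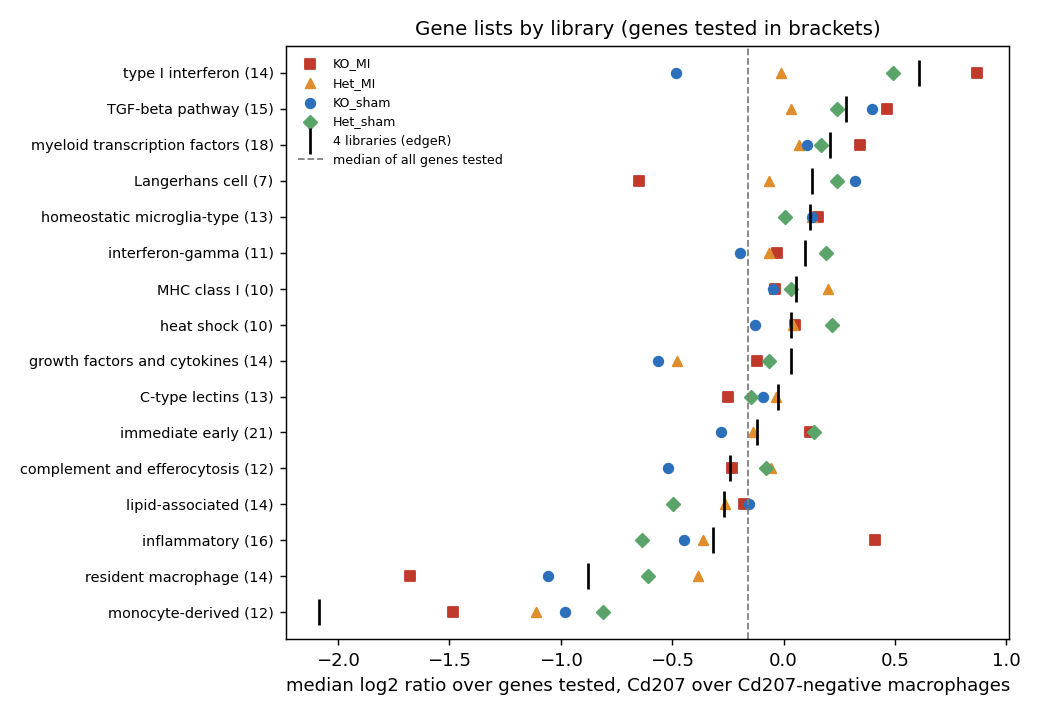
Median log2 ratio of Cd207 over Cd207-negative macrophages for 16 gene lists, by library (10 CPM added to each level) and by edgeR over the 4 libraries. The monocyte list lies between −1.48 and −0.81 and the resident list between −1.67 and −0.38 in the libraries, while the type I interferon list runs from −0.48 in KO_sham to 0.87 in KO_MI.

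Between libraries, levels within Cd207 macrophages are compared without a test, since each group was 1 library, and the exact conditional binomial 95% intervals cover counting error only. The contrasts share libraries with each other. Among 754 genes with at least 60 UMIs over both libraries, 52 were 1.5-fold or more higher in KO_MI than in Het_MI (6.9%) and 67 lower (8.89%). In the larger Cd207-negative sums, 11 of these genes were higher by that fold and 2 lower. Basp1, a membrane-bound signalling protein, had 722 and 191 CPM in KO_MI and Het_MI (log2 ratio 1.92, 1.35 to 2.51), against −0.26 in Cd207-negative macrophages. Gngt2 (1.81), Ifi27l2a (1.76), Il1b (1.44) and Rgs1 (1.40) came next. Il1b, an inflammatory cytokine, was at −0.16 in Cd207-negative macrophages.

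Lower in KO_MI than in Het_MI were Folr2, a folate receptor of resident macrophages, with 76 and 288 CPM (−1.92, −3.20 to −0.86), and Vsig4, with 361 and 916 CPM (−1.34, −1.89 to −0.84). Vsig4 ran the other way in Cd207-negative macrophages, with 59.7 CPM in KO_MI and 21.1 in Het_MI. Hspa1a (−1.24), Hpgd (−1.05), which breaks down prostaglandins, and Cxcl10 (741 and 1479 CPM) followed. Of 9 resident macrophage genes with at least 20 UMIs over both libraries, 8 were 1.5-fold or more lower in KO_MI and 0 higher, with a median of −1.17 against −0.30 in Cd207-negative macrophages. All of them were read in the same 15 and 19 cells.

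After infarction in Het mice, 96 of 877 genes were 1.5-fold or more higher than after sham (10.9%) and 49 lower (5.59%). In the larger Cd207-negative sums, 63 of these genes were higher by that fold and 1 lower. Cxcl1, a chemokine for neutrophils, had 144 UMIs in Het_MI and 0 in Het_sham, at least 34.3-fold higher with 3 UMIs as the floor, and 1.60 on the log2 scale in Cd207-negative macrophages. Ccl4, a chemokine of activated macrophages, had 2748 and 624 CPM in Het_MI and Het_sham (2.14, 1.83 to 2.46). Cxcl2 had 6278 and 1879 CPM (1.74, 1.56 to 1.93). Of 13 inflammatory genes, 11 were 1.5-fold or more higher and 0 lower, with a median of 1.46 against 1.16 in Cd207-negative macrophages. Between the sham libraries, KO_sham over Het_sham, 9 of 13 genes of this list were higher by that fold and 1 lower, with a median of 0.98. In KO_MI over KO_sham, 6 of 13 were higher and 0 lower, with a median of 0.54. Folr2 (1.89) and Mt1 (1.80), a metallothionein, were also higher in Het_MI than in Het_sham, and Gadd45g (−1.55) and Vim (−1.21) lower.

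KO_MI over KO_sham had 62 of 597 genes 1.5-fold or more higher (10.4%) and 50 lower (8.38%). The Cd207-negative sums had 13 of these genes higher by that fold and 1 lower. Isg15, an interferon-induced protein, had 541 and 118 CPM in KO_MI and KO_sham (2.20, 1.41 to 3.05), with 29.8% of its KO_MI UMIs in 1 cell. Il1b (2.15), Ifi27l2a, Ets2 (1.41) and Sqstm1 (1.38) came next, and Sumo2 (−1.52) and Tmem176a (−1.37) were lower. In Cd207-negative macrophages Isg15 was at 0.27 and Il1b at 0.18.

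KO_sham over Het_sham had 68 of 703 genes 1.5-fold or more higher (9.67%) and 62 lower (8.82%), and 123 higher and 38 lower with median-of-ratios scaling. Of the 703, 28 were higher by that fold and 0 lower in the Cd207-negative sums. Cxcl1 had 89 UMIs in KO_sham and 0 in Het_sham, at least 29.9-fold higher by the same floor, and 1.44 in Cd207-negative macrophages. Cxcl2 had 7548 and 1879 CPM (2.01, 1.82 to 2.20) and Ccl4 2369 and 624 CPM (1.92, 1.60 to 2.26). Mt1 (1.68) and Bcl2a1b (1.23) followed, and Gadd45g (−2.23), Ly6e (−1.25), Mrc1 (−1.13) and Apoe (−0.72) were lower.

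Id3 was steadier, with log2 ratios of 0.32 for KO_MI over Het_MI, −0.28 for Het_MI over Het_sham, 0.47 for KO_MI over KO_sham and −0.42 for KO_sham over Het_sham. Cd207, which chose the cells, was at −0.07, 0.09, −0.23 and 0.24 in the same contrasts.

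Sex-linked transcripts differed between the libraries. Xist, which silences an X chromosome in females, was found without Y-linked UMIs in 15 of 15 Cd207 macrophages of KO_MI, 1 of 19 of Het_MI, 10 of 18 of KO_sham and 5 of 15 of Het_sham. Y-linked UMIs without Xist were found in 0, 13, 4 and 3 cells. In Cd207-negative macrophages Xist alone was found in 95%, 18.8%, 27.9% and 19.5% of cells. Sex therefore moved with the library, and sex and group cannot be told apart in contrasts with KO_MI. Het_MI over Het_sham also mixed sex with group, with Xist at 9.30 CPM in Het_MI and 462 CPM in Het_sham in Cd207 macrophages.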

How the data were processed

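Per the labels, 4 libraries of sorted CD45+ heart cells were made with a 10x 3' v3 kit. The authors deposited raw UMI counts per gene and barcode (32285 genes). Cell Ranger 6.1.1 and Seurat 4 with build mm10 are named per the submitters' processing notes, while per the file headers Cell Ranger was 4.0.0. The cells and gene lists described here were chosen with earlier results of these data known. Cells were filtered, classed by the stated rule and summed per library and class. Sums with at least 10 UMIs in at least 4 of 8 were tested with edgeR 4.0.16 (R 4.3.3, TMM factors, library as block, Benjamini-Hochberg over all genes). The library number pairs the classes because both come from the same library. DESeq2 1.42.0 and limma 3.58.1 were alternatives. Named were the 12 highest and 12 lowest called genes with at least 100 UMIs, 20 CPM in the higher class and 1 sign in all 4 libraries, members of each list by UMIs and ratio, and, between libraries, up to 5 genes a direction with at least 60 UMIs, 100 CPM, an interval beyond 1.5-fold and at most 30% of UMIs from 1 cell. Genes named outside this rule are Clec4f, Nppa, Fam129a, Itgal, Acp5, Timd4, marker genes and called list members. The automatic threshold of Scrublet (scanpy 1.11.5) marked too few cells to be used, so the cells with the highest scores were removed at the expected rate, which removed 0 Cd207 macrophages. Lineage markers served as a second filter. On simulated data for this class comparison (11510 genes), 70% of 2-fold and 100% of 4-fold higher genes were recovered, with 9 false calls among 11310 unchanged genes. The changed genes were drawn from those with at least 30 UMIs over the Cd207 sums, and counts were simulated with the spread of the same fit. These figures therefore do not cover genes with fewer UMIs, such as Smad6 (16) and Dmpk (28), or genes with uneven libraries. Clec7a and Mx1 were not analysed here. The result of 1 listed gene is not reported here.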

Additional observations from a re-analysis of the deposited data

Results flagged for a closer look

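Over the 4 libraries, 2 of 24 genes named highest or lowest had a library that stood far from the others, and chance alone would give about 1 in 20. The log2 ratio of Adgb with 10 CPM added was 0.4417 in KO_sham, where it rested on 1 UMI, below the other libraries. That of Cstdc4 was −2.215 in KO_MI, above the other libraries, and its UMIs there came from 1 cell.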

How the results depend on the processing

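The counts of genes higher and lower in Cd207 macrophages (136 and 228) became 44 and 33 against depth-matched cells, where fewer genes were tested, and 70 and 109 with no replicate block. limma-voom gave 14 and 21, DESeq2 gave 85 lower, and all Cd207 cells with C1q gave 213 higher. Leaving out 1 library gave 77 to 111 higher and 116 to 212 lower genes, with the fewest, 77 and 116, without Het_MI. The cause was not tested. Of 77 called genes named here, 19 were called by limma-voom, 61 by DESeq2, 75 with edgeR's robust option, 71 with median-of-ratios factors and 43 with no replicate block. Against depth-matched cells, 42 of the 77 had a value: 23 kept their call, 17 lost it and 2 changed sign. Cxcl2 turned to 0.11 and Ifi27l2a to 0.021. Skil, Smad7, Folr2, Maf, Igf1, Apoe, Lyz2 and Ccl2 were among those that lost it. The ratio of shares of KO_MI over Het_MI was 1.21 with the other limits dropped. KO_sham over Het_sham gave 123 higher and 38 lower genes with median-of-ratios scaling. With 15 to 19 cells a library, genes under about 10 UMIs have wide counting error, and with 1 library per group no difference between groups can be tested.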
